A study of Mus musculus with 2 samples.

Results

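The 9 genes described here serve the carriage and uptake of vitamin A, the synthesis and carriage of retinoic acid, or the response to it. They are Ttr and Rbp4 (the plasma carrier complex), Stra6 (the uptake receptor), Crabp1 and Crabp2 (carriers of retinoic acid inside the cell), Aldh1a1, Aldh1a2 and Aldh1a3 (the enzymes that make retinoic acid) and Rarb (a retinoic acid receptor that is itself a target gene). They were taken by gene symbol from the array's platform annotation, with every probe set annotated to them, which gave 13 probe sets. They are 9 of the 12393 genes that had a probe set of their own. RNA came from mouse uterus on day 8 of pregnancy, from stretches of the wall that lie between implantation sites and hold no embryo. One sample came from Cbs null females, homozygous for a deficiency of cystathionine beta-synthase, the enzyme that takes homocysteine into transsulfuration, and the other from control females. The females of both groups were aged 4 months, on a C57Bl/6J X OLA129 background, and each sample was hybridised to 1 Affymetrix array. The deficiency was present in the whole animal, and the labels do not say how many animals a sample held or what genotype the embryos had.

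Vitamin A travels in blood as retinol bound to Rbp4, and Ttr, the thyroid hormone carrier, holds that complex in the circulation. Stra6 takes retinol from Rbp4 into cells, retinol dehydrogenases convert it to retinaldehyde, and the Aldh1a enzymes oxidise retinaldehyde to retinoic acid. Retinoic acid then binds nuclear receptors on DNA elements near its target genes, and Cyp26 enzymes break it down. In the pregnant uterus this pathway acts in the epithelium and in the stroma that becomes decidua.

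With 1 array per group there is no replicate check and no test, so differences are described by a fixed size of 2-fold. Signals are linear intensities as deposited. A signal above 43.0 units, the 40th percentile of both arrays together, was treated as measured, and weaker signals were raised to that floor before taking log2 ratios, always of Cbs null over control. The overall scale of the arrays was alike, with a median signal of 75.6 in the Cbs null sample and 74.55 in the control sample. Of 8414 genes measured on at least 1 array, 128 were at least 2-fold apart, 67 higher and 61 lower in the Cbs null sample. Probe sets of the same gene gave log2 ratios with a technical SD of 0.22 (2764 genes), which was 0.26 where the weaker signal was under 4 times the floor and 0.15 where all signals were brighter. That SD says nothing of how much mice differ from one another. The brighter Cbs probe set read 42.6 in the Cbs null sample and 79.8 in the control sample. It was above the floor in the control sample alone, so its direction was fixed by the filter. The other Cbs probe set read 25.1 and 39.8 in the same order, below the floor in both. It is not known whether the brighter probe set lies in the stretch that the null allele lacks.

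Retinoic acid acts through receptor pairs bound to a repeat of a 6-base half-site, and the best known example lies just before the start of Rarb. The mouse RefSeq promoter table (GRCm38.p6) held windows for 6 of the 9 genes, namely Rbp4, Stra6, Crabp1, Aldh1a1, Aldh1a2 and Rarb, 11 windows in all, each of 250 bases before and 50 after a start. They were searched on both strands for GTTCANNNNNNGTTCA, a direct repeat in which the last 5 bases of each half-site are spelled out and the half-sites are 5 bases apart, and for the TATA box TATAAA. The direct repeat was found in 25 of all 32851 windows (0.0761%) and TATAAA in 13.6% of them. Among the 11 windows of these genes, 1 held the direct repeat (Rarb) and 1 held TATAAA (a start of Rbp4). The last 100 bases before the start are shown for Rarb, for Cyp26a1, the retinoic acid breakdown enzyme whose promoter also held the repeat, and for the carrier gene Rbp4 and the enzyme gene Aldh1a2, which had the lowest ratios among the measured ones of the 9. Capitals mark the direct repeat in the first pair and TATAAA in Rbp4, and the Aldh1a2 stretch held neither motif. The motifs do not overlap one another in these stretches.
Rarb, chr14:16575477-16575576, minus strand: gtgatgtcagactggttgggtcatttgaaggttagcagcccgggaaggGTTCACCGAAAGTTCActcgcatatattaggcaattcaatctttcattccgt
Cyp26a1, chr19:37697708-37697807, plus strand: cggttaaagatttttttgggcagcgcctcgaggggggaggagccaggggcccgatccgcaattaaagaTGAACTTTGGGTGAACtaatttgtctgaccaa
Rbp4, chr19:38124812-38124911, minus strand: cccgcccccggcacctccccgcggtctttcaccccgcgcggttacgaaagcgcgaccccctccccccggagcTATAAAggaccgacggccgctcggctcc
Aldh1a2, chr9:71215689-71215788, plus strand: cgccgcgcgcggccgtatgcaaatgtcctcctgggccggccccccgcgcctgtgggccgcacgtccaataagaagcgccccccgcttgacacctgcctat

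Among the 4 genes measured in both samples, the carrier gene Rbp4 and the synthesis gene Aldh1a2 were lower in the Cbs null sample and the uptake gene Stra6 was higher. Rbp4 was 2.17-fold lower in the Cbs null sample, Ttr at least 2.56-fold higher, Aldh1a2 1.95-fold lower and Stra6 1.76-fold higher. Aldh1a1 gave nearly the same signal in both samples, and Crabp1, Crabp2, Aldh1a3 and Rarb were below the floor on both arrays. Of the 9 genes, 5 were measured, and 2 of these were at least 2-fold apart, where the share over all measured genes was 1.52%. The 9 genes and the size rule were chosen with earlier results of these data known, so setting the counts beside such shares is no test. By probe set, 6 of the 13 were measured and 2 were at least 2-fold apart, where the share over all measured probe sets was 1.31%. Over all measured genes, 0.796% were at least 2-fold higher, the direction of Ttr, and 0.725% at least 2-fold lower, the direction of Rbp4. Ttr passed the filter on low values through the Cbs null array alone, so its direction was fixed by the filter, and only Rbp4, Stra6, Aldh1a1 and Aldh1a2 were above the floor on both. The median log2 ratio of the 5 measured genes was -0.02, against 0.02 over all measured genes.

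**Figure D1:**
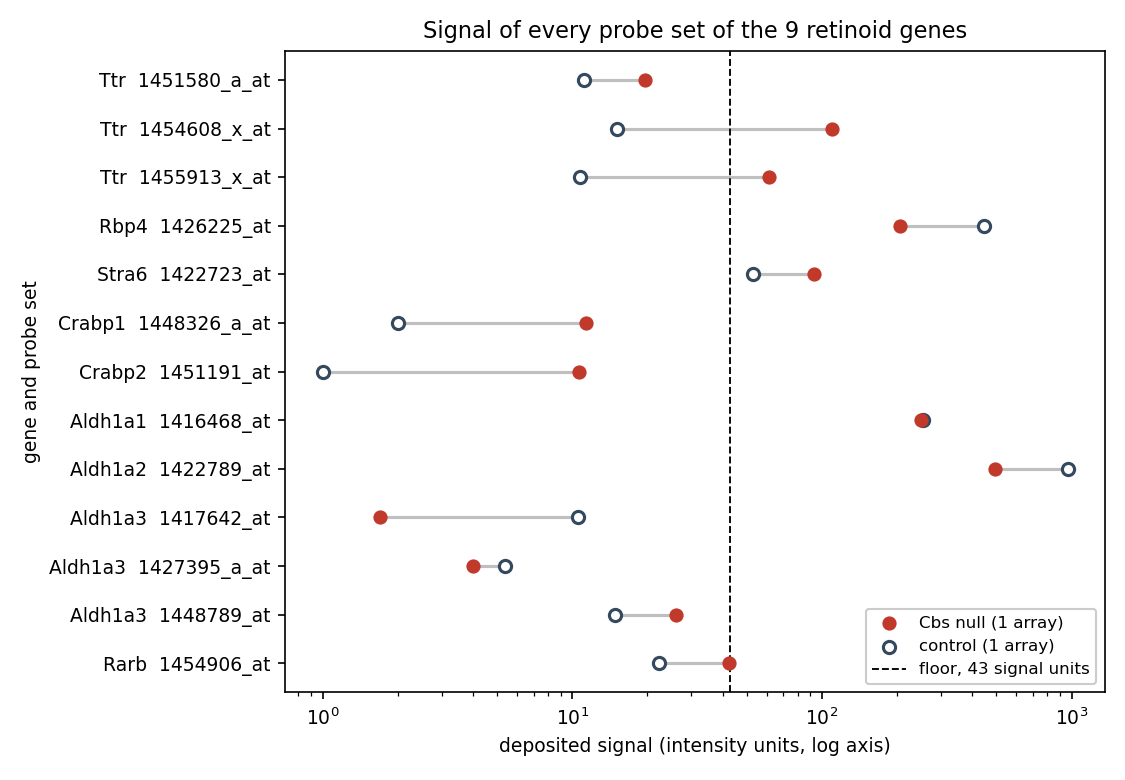
Signal of the 13 probe sets of the 9 genes in the Cbs null sample (filled points) and the control sample (open points), 1 array each, on a log axis in intensity units, with a dashed line at the floor of 43 units. Rbp4 and Aldh1a2 lie to the left in the Cbs null sample, Stra6 and 2 Ttr probe sets to the right, and Crabp1, Crabp2, Aldh1a3, Rarb and the third Ttr probe set are below the floor in both.

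Rbp4, the retinol carrier that liver and fat secrete, read 205.4 in the Cbs null sample and 446 in the control sample on its single probe set, 1426225_at. Its log2 ratio was -1.12, and 41 of the 8414 measured genes (0.487%) had a ratio as low or lower. Both readings lay well above the floor, so the size of this difference does not rest on it. In whole tissue, fewer cells that make a transcript and less transcript per cell cannot be told apart, here or in any result that follows.

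Fat is a known source of Rbp4, and all 7 measured adipocyte markers were lower in the Cbs null sample, none of them 2-fold. Their median log2 ratio was -0.32, and their summed signal was 14846 in the Cbs null sample and 18426 in the control sample. Adipoq, the adipocyte hormone adiponectin, read 2002 in the Cbs null sample and 2494 in the control sample, and Retn, the hormone resistin, 672.3 and 1122 in the same order, both chosen once values were known. Car3 and Fabp4, the measured adipocyte markers of highest signal, had log2 ratios of -0.16 and -0.37. Lep was the 1 adipocyte marker with a probe set that was below the floor on both arrays. Each of the 7 measured adipocyte markers differed by less than Rbp4 did. The part of adipose tissue in the Rbp4 result was not tested.

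Ttr, which carries thyroxine and the Rbp4 complex, had 3 probe sets. Probe set 1454608_x_at read 110 in the Cbs null sample and 15.1 in the control sample. Probe set 1455913_x_at read 61.2 in the Cbs null sample and 10.7 in the control sample. Probe set 1451580_a_at read 19.5 in the Cbs null sample and 11.1 in the control sample, below the floor in both. No control reading was above the floor, so the first pair give only lower bounds, at least 2.56-fold and at least 1.42-fold, and the third gives no direction. The suffix _x_at marks probe sets some of whose probes also match other sequences, and both Ttr probe sets above the floor carry it.

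Liver and visceral yolk sac are tissues rich in Ttr and Rbp4, and 8 of their 9 markers on the array were below the floor on both arrays. These were Afp, Apoa1, Apoa2, Apoa4, Apob, Amn, Cubn and Fgb. The remaining one, Alb, the serum protein albumin, read 63.6 in the Cbs null sample and 45.1 in the control sample. The 3 trophoblast markers on the array, Hand1, Tpbpa and Ascl2, were also below the floor on both arrays.

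Stra6, the membrane receptor that takes up retinol from Rbp4, read 93.2 in the Cbs null sample and 52.9 in the control sample on probe set 1422723_at. Its log2 ratio of 0.82 was short of 2-fold, and 123 of the 8414 measured genes (1.46%) had a ratio as high or higher. The control reading was close to the floor of 43.0, in the range where the technical SD was 0.26.

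Markers of uterine epithelium were higher in the Cbs null sample. All 14 measured epithelial markers had a ratio above 0, with a median of 0.51, and their summed signal was 9109 in the Cbs null sample and 7036 in the control sample. Cldn3, a tight junction gene, read 696.8 in the Cbs null sample and 336.5 in the control sample, 2.07-fold higher. It was the only one of the 14 past 2-fold, where the share higher over all measured genes was 0.796%. The keratin gene Krt18 stood at 0.70 and the secreted protein gene Wfdc2 at 0.01. Cldn4 was above the floor in the Cbs null sample alone. Macrophage markers were higher too, 9 of 9, of which Aif1 was above the floor in the Cbs null sample alone, with a median of 0.52 and a summed signal of 7063 in the Cbs null sample and 4865 in the control sample. The part of either cell type in the Ttr and Stra6 values was not tested.

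**Figure D2:**
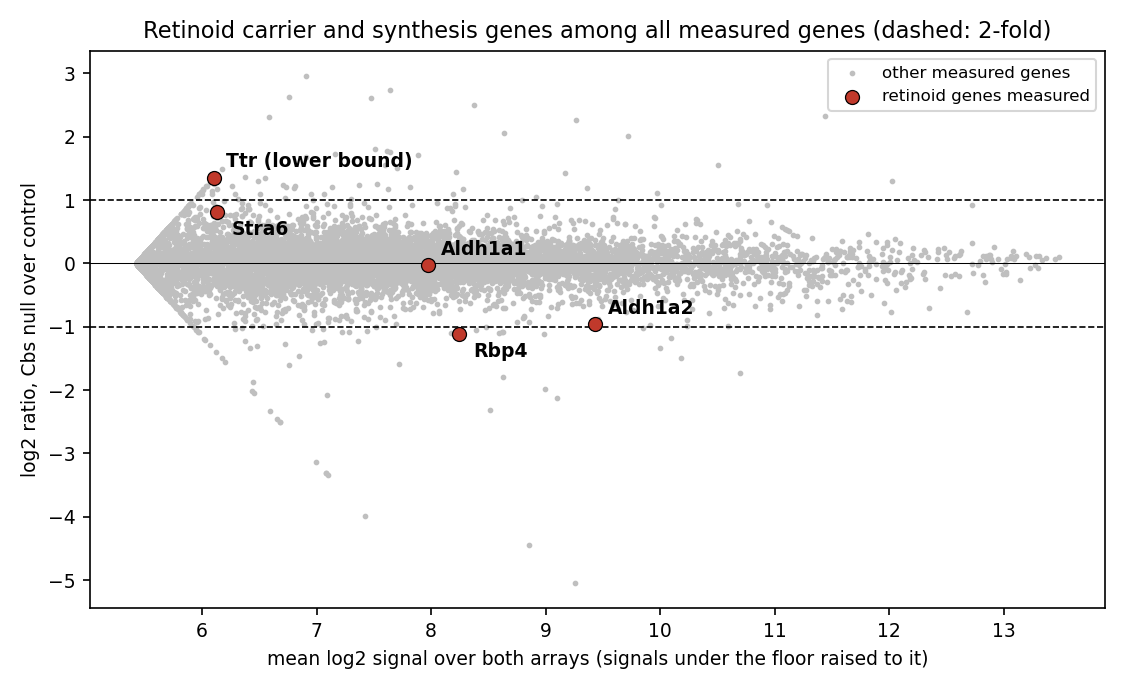
Log2 ratio of Cbs null over control against the mean log2 signal of both arrays, 1 point for each of 8414 measured genes, with the 5 measured retinoid genes in red and dashed lines at 2-fold. Rbp4 (-1.12) and Ttr (1.36, a lower bound) lie past the lines, Aldh1a2 (-0.96) and Stra6 (0.82) just inside them, and Aldh1a1 at -0.02.

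The retinaldehyde dehydrogenases did not differ alike. Aldh1a2, the main source of retinoic acid in the early mouse embryo and a stromal enzyme of the uterus, read 494.6 in the Cbs null sample and 963.8 in the control sample on probe set 1422789_at. Its log2 ratio of -0.96 was just short of 2-fold, and 69 of the 8414 measured genes (0.820%) had a ratio as low or lower. Aldh1a1, which is common in adult epithelia, read 249 in the Cbs null sample and 253.2 in the control sample, a log2 ratio of -0.02 that is smaller than the technical SD.

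Aldh1a3, the third enzyme of the group, was below the floor on all of its 3 probe sets. Probe set 1448789_at read 26 in the Cbs null sample and 14.8 in the control sample. Probe set 1417642_at read 1.7 in the Cbs null sample and 10.5 in the control sample. Probe set 1427395_a_at read 4 in the Cbs null sample and 5.4 in the control sample. The probe sets went different ways at these weak signals, and no direction can be given for the gene.

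Markers of stroma, mesothelium and decidua, which could hold Aldh1a2, differed less than Aldh1a2 itself, apart from 3 decidual genes. Of the 9 measured stromal and fibroblast markers, 5 were lower and 4 higher, none of them 2-fold, with a median log2 ratio of -0.17 and a summed signal of 40518 in the Cbs null sample and 43135 in the control sample. Col3a1, a fibrillar collagen, stood at -0.17 and Dcn, the stromal proteoglycan decorin, at 0.26. Of the 5 measured mesothelial markers, 3 were lower and 2 higher, of which Bnc1 was above the floor in the Cbs null sample alone, and their summed signal was 1382 in the Cbs null sample and 1319 in the control sample. Wt1, a transcription factor of mesothelium and uterine stroma, read 702.8 in the Cbs null sample and 807.1 in the control sample. Krt19, listed with mesothelium but also an epithelial keratin, was the one furthest from 0 among these, at 0.90.

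A trio of genes of the decidual reaction stood far lower in the Cbs null sample. The decidual prolactin gene Prl8a2 read 5.8 in the Cbs null sample and 424.4 in the control sample, at least 9.87-fold lower. The tryptophan dioxygenase gene Tdo2 read 27.4 in the Cbs null sample and 685.3 in the control sample, at least 15.9-fold lower. Fst, whose product binds activin, read 256.2 in the Cbs null sample and 1012 in the control sample, 3.95-fold lower. Prl8a2 and Tdo2 were above the floor in the control sample alone, so their direction was fixed by the filter, whereas Fst was above it in both. The decidual list was chosen with earlier results of these data known. The other 6 of 9 measured decidual markers were not 2-fold apart. Over all measured genes, the share at least 2-fold lower was 0.725%. The median of the decidual list was -0.01, and its summed signal was 3539 in the Cbs null sample and 5208 in the control sample. Hoxa10 and Hoxa11, patterning genes of the uterus, stood at 0.19 and -0.01. Smooth muscle markers were lower, 8 of 8, with a median of -0.41, and endothelial markers had a median of -0.02. The part of any of these cell types in the Aldh1a2 result was not tested.

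**Figure D3:**
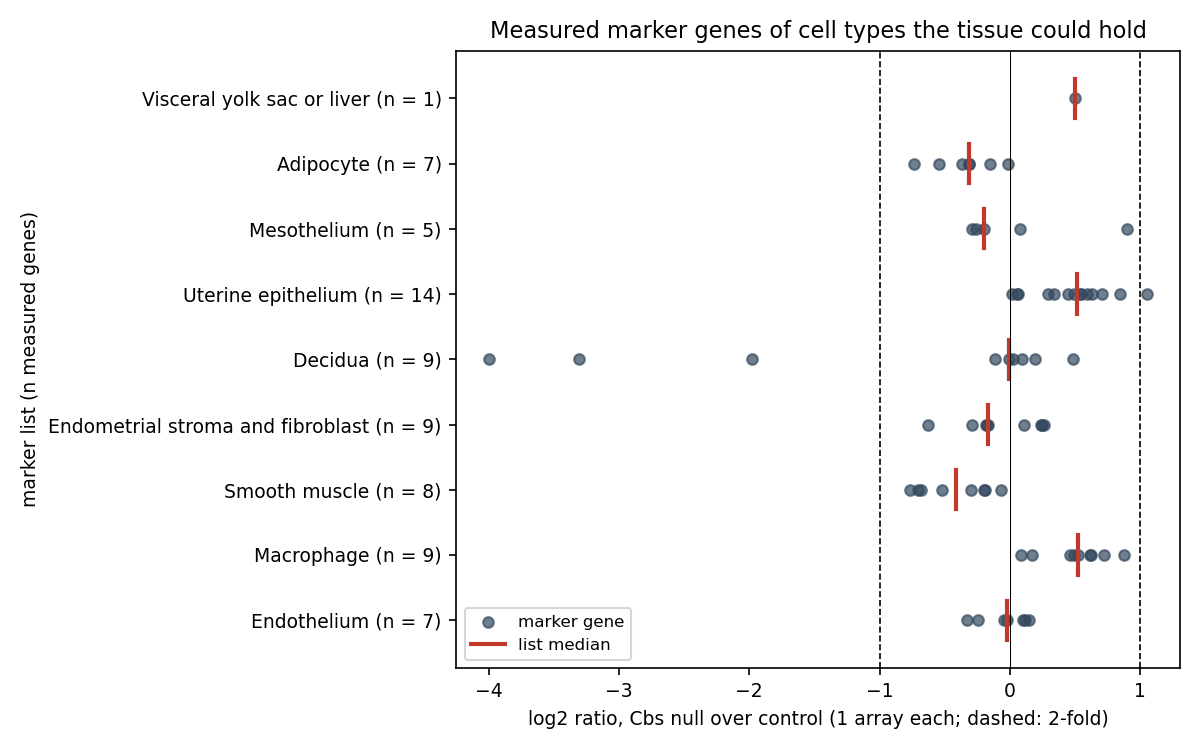
Log2 ratio of Cbs null over control for each measured marker gene, by cell type, with the list median as a red bar and dashed lines at 2-fold. All 14 epithelial and 9 macrophage markers lie above 0, and all 7 adipocyte and 8 smooth muscle markers below 0. Far to the left lie 3 decidual genes, of which Prl8a2 and Tdo2 are bounds.

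The carriers of retinoic acid inside the cell gave no signal above the floor in either sample. Crabp1, which is thought to hold retinoic acid in the cytoplasm, read 11.4 in the Cbs null sample and 2 in the control sample. Crabp2, which delivers retinoic acid to its receptors, read 10.6 in the Cbs null sample and 1 in the control sample. Both single probe sets were far below the floor, where signals have no reliable order, so no fold is given.

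Rarb, the receptor gene with the direct repeat shown above, read 42.6 in the Cbs null sample and 22.2 in the control sample on probe set 1454906_at. The Cbs null reading missed the floor of 43.0 by less than 1 unit, and the control reading was clearly under it, so the gene was not counted as measured. Cyp26a1, which shares the repeat and breaks retinoic acid down, was measured in both samples, with 661.8 in the Cbs null sample and 438.5 in the control sample, 1.51-fold higher. The direct repeat was found in promoters of 24 genes, of which 8 had a probe set of their own and 4 were measured. Besides Cyp26a1 these were Blvrb, Tnfsf13b and Dmd, with log2 ratios of 0.49, 0.18 and -0.09. None of the 4 was 2-fold apart, where the share over all measured genes was 1.52%, so nothing is read from that count.

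The rest of the retinoid pathway is described by its counts. Of 67 further genes listed by role, 55 had a probe set of their own and 35 were measured, and 0 of the 35 were 2-fold apart in either direction, where the share over all measured genes was 1.52%. All 35 were above the floor on both arrays. Their median log2 ratio was 0.08, against 0.02 over all measured genes, with 20 above 0 and 15 below. At a size of 1.5-fold, 3 of the 35 were apart, 2 higher and 1 lower, against 7.06% of all measured genes (3.62% higher and 3.43% lower). These were Adh1, Cyp26a1 and Tnfaip2, and Tnfaip2 was chosen once values were known.

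The retinol and retinaldehyde oxidoreductases numbered 11 measured genes, with log2 ratios from -0.32 (Rdh12) to 0.69 (Adh1). Adh1, an alcohol dehydrogenase that oxidises retinol, read 1623 in the Cbs null sample and 1005 in the control sample, 1.61-fold higher. Adh5, the class of alcohol dehydrogenase that also clears formaldehyde, read 1118 in the Cbs null sample and 943 in the control sample. Rdh10, the retinol dehydrogenase that feeds retinoic acid synthesis in the mouse embryo, stood at -0.14, and Dhrs3, which turns retinaldehyde back to retinol, at 0.03. Both were chosen once values were known.

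The 2 measured carriers and 3 measured storage genes had ratios below 0 on the probe sets that represent them. The lipid receptors Scarb1 and Cd36 went opposite ways. Fabp5, a fatty acid binding protein that can also carry retinoic acid, read 1100 in the Cbs null sample and 1378 in the control sample, and its second probe set had the same log2 ratio of -0.32. Rbp7, a cellular retinol carrier, read 145.2 in the Cbs null sample and 192.3 in the control sample. The storage genes Ces1d, a carboxylesterase, and Dgat1, an acyltransferase that can esterify retinol, stood at -0.01 and -0.17. Scarb1, the lipoprotein receptor that also takes up carotenoids, read 735.3, 499.9 and 381.1 on its 3 probe sets in the Cbs null sample, against 502.6, 306.1 and 244.6 on the same probe sets in the control sample. All 3 were higher in the Cbs null sample, by 1.46-fold to 1.63-fold. Cd36, the scavenger receptor for fatty acids, read 380 in the Cbs null sample and 495 in the control sample and was lower on each of its 3 probe sets. Of these, 1450884_at was above the floor in the control sample alone, so its direction was fixed by the filter.

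Receptors, cofactors and target genes of retinoic acid held no gene that was 2-fold apart on its representing probe set, among the 15 measured. The share over all measured genes was 1.52%. Of the 6 measured receptors and cofactors, 5 had ratios from 0.15 to 0.21, and the coactivator gene Ncoa3 stood at -0.33. All 5 were below the technical SD of 0.22 over all signal levels. Second probe sets of Rarg and Nrip1 stood at 0.04 and 0.31, and those of Ncoa1 and Rxra at -0.05 and -0.19. The Rxra one was above the floor in the control sample alone. Rarg, the measured retinoic acid receptor, read 255.9 in the Cbs null sample and 224.5 in the control sample, and its partner Rxrb 290.1 and 261.8 in the same order, both chosen once values were known. Nrip1, a corepressor, stood at 0.19 and the coactivator gene Ncoa1 at 0.16. Rara was below the floor in both samples on its 1 probe set. Tgm2, a transglutaminase that retinoic acid raises in many cells, stood at -0.27 on the probe set that represents it, while another of its probe sets, 1455900_x_at, was 2.83-fold higher. Rarres2, the secreted protein chemerin, stood at -0.16. Tnfaip2 read 153.3 and 122.7 on its 2 probe sets in the Cbs null sample, against 273.7 and 231 in the control sample, 1.79-fold and 1.88-fold lower.

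**Figure D4:**
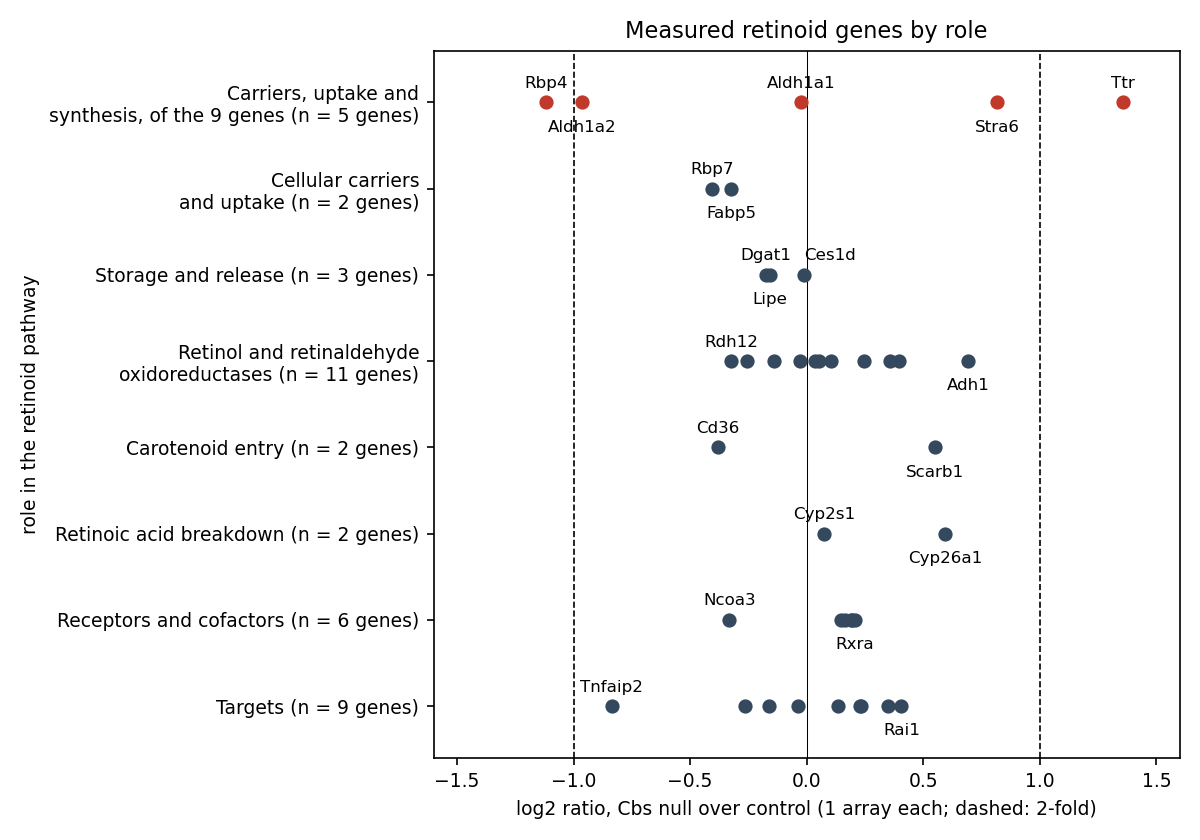
Log2 ratio of Cbs null over control for the 5 measured genes of the 9 (red, top row) and for the 35 other measured retinoid genes by role (dark), with dashed lines at 2-fold. The genes at the ends of each role are named, and Rbp4 (-1.12) and Ttr (1.36, a lower bound) are the ones past the lines.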

How the data were processed

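Total RNA (2 microg) was made into biotin-labelled cRNA and hybridised, per the labels' protocols. The deposited table holds 1 linear intensity per probe set and array, and the 2% trimmed mean computed from it was 200.1 on both arrays, so the values were used as deposited. GCOS 1.4 is named in the submitters' processing notes, and the method of summarisation and scaling is not given in the sources used here. Of 22626 probe sets outside the Affymetrix controls, 20380 had 1 gene symbol, 691 several and 1555 none, by the platform annotation. Where a gene had several 1-symbol probe sets, the one of highest mean log2 signal stood for it. No test was possible with 1 array per group, and the number of arrays limits the precision. The 9 genes, the lists and the size rule were chosen with earlier results of these data known. Named were all 9 genes and, from each list, genes at least 2-fold apart (at most 4 of a marker list) or else the 2 of highest signal. Other genes are named by the promoter motif, as list members counted, or as chosen once values were known. Alternatives covered scaling, floor, pseudocount, probe set choice and size rule. Ratios were computed with Python 3.11.15, pandas 2.3.3 and numpy 2.4.6, and tested on simulated data.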

Additional observations from a re-analysis of the deposited data

How the results depend on the processing

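No paired analysis was possible because each group had 1 array. Centring on the median ratio and quantile normalization left 2 of the 9 genes at least 2-fold apart. That count was 1, Rbp4 alone, with the floor at the 60th percentile (119.9 units), with probe sets of a gene averaged and without _s_at and _x_at probe sets. It was 4 at 1.5-fold and 0 at 3-fold. By probe set the count of 2 became 1 with the floor at the 60th percentile or without those suffixes, 4 at 1.5-fold and 0 at 3-fold. It became 3 under a 20th percentile floor or a pseudocount of 16 without a floor. For the other retinoid genes, 0 of 35 measured became 2 of 48 with the floor at the 20th percentile (10.9 units). At that floor, 456 of all 10739 measured genes were 2-fold apart. The 35 were above the main floor on both arrays, so the lower floor left their ratios unchanged. At 1.5-fold the count was 3 of the 35. Over all measured genes, 128 of 8414 were 2-fold apart with the main floor and 61 of 6115 with the floor at the 60th percentile. Rbp4 ranged from -1.14 to -1.06, Aldh1a2 from -0.98 to -0.94, Aldh1a1 from -0.04 to -0.02 and Stra6 from 0.66 to 0.82 over the alternatives that gave them a value. Ttr ranged from 0.93, with probe sets averaged, to 2.86, with the floor at the 20th percentile. Ttr was not measured with the floor at the 60th percentile or without _s_at and _x_at probe sets, and Stra6 was not with that higher floor. Weak signals limit Ttr, Stra6, Rarb, Crabp1, Crabp2 and Aldh1a3.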

Other observations

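The wider families of the 9 genes were looked at by gene symbol after the values were seen. Of 14 other aldehyde dehydrogenase genes, 11 were measured and 0 were 2-fold apart, where the share over all measured genes was 1.52%. The log2 ratios of the 11 ran from -0.90 to 0.19. The lowest was Aldh1a7, a close relative of Aldh1a1 in mouse, which read 107.2 in the Cbs null sample and 200.1 in the control sample, 1.87-fold lower. Aldh1b1, a mitochondrial relative, stood at -0.48, whereas Aldh2, the enzyme of acetaldehyde clearance, stood at 0.04 and Aldh9a1 at 0.08. Among the lipocalins, the family of secreted carriers to which Rbp4 belongs, 4 of 12 other genes were measured. Apod, a carrier of small lipids, read 116.7 in the Cbs null sample and 50.3 in the control sample, a log2 ratio of 1.21, and Lcn2 and Obp2a stood at 0.44 and 0.52. Orm1, an acute phase protein, stood at -0.55. Of the fatty acid binding proteins, the family of Crabp1 and Crabp2, 2 of 8 other genes were measured, Fabp4 at -0.37 and Fabp5 at -0.32.

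The probe sets of Tgm2 disagreed. Probe set 1455900_x_at read 2003 in the Cbs null sample and 707.7 in the control sample, 2.83-fold higher, whereas the other 4 measured probe sets of the gene had ratios from -0.39 to -0.08.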
